A study of Mus musculus with 8 samples.

Results

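The 8 genes described here set whether a T cell recirculates through lymphoid organs and keeps a memory state: Ccr7, S1pr1, Klf2, Tcf7, Lef1, Bach2, Foxo1 and Satb1. They were chosen by name, with earlier results of these data known, as were the gene lists further below. Their shares set beside those of all tested genes are therefore descriptive. All 8 were found among the 37411 genes of the count table. All 8 were also among the 10000 genes that passed a filter on low counts and were tested. RNA had been sequenced from CD4+ effector T cells that carried a congenic marker and a retroviral hairpin, sorted at about 10000 cells per library 6 weeks after transfer. Every host was a C57BL/6 mouse lacking Rag1 (Rag1-/-), a strain that makes no T or B cells of its own. The cells came from the small intestine or from the spleen, carried the shMdr1 hairpin against the xenobiotic transporter Mdr1 or the control hairpin shCD8, and came from Asbt-/- or Asbt+/+ hosts. Asbt (Slc10a2) is the ileal bile acid transporter, and its genotype is that of the host. The 3 factors, of 2 levels each, gave 8 combinations with 1 library apiece, and each level was therefore seen in 4 libraries. The hairpin was read from the sample titles, because the retrovirus label names shMdr1 for all 8 libraries. The labels do not say whether the libraries came from separate animals, so the p-values below measure the spread between these libraries, part of which may be technical.

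Naive and central memory T cells leave lymphoid organs along a gradient of sphingosine 1-phosphate, sensed by S1PR1, and enter lymph nodes through CCR7. The transcription factor FOXO1 switches on Klf2, and KLF2 in turn switches on S1pr1, while signalling through the T cell receptor, PI3K and AKT holds FOXO1 out of the nucleus. TCF1 (encoded by Tcf7), LEF1, BACH2 and SATB1 maintain the naive and memory programmes, and many T cells that settle in the gut wall turn the exit receptors down.

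The libraries held 1685225 to 2767105 counts, so that 1 count corresponded to 0.394 to 0.642 CPM, that is counts scaled to a common library size by TMM factors. In shCD8 small intestine Asbt+/+, 8456 genes were detected, against 11345 to 13184 genes in the other 7 libraries. Mitochondrial transcripts took 18.3% of counts in shMdr1 small intestine Asbt+/+, 26.8% in shMdr1 spleen Asbt-/- and 17.6% in shCD8 spleen Asbt-/-, against 6.63 to 8.62% in the others. The gene for Mdr1, Abcb1a, was not lower in the small intestine Asbt+/+ library labelled shMdr1 (23 counts) than in the one labelled shCD8 (21 counts), while in the other 3 pairs it was lower with shMdr1. Of the small intestine libraries, those of Asbt+/+ hosts thus held the one with the fewest genes and the one with the highest mitochondrial share. Similar or higher mitochondrial shares were also seen in both spleen Asbt-/- libraries. The tissue and host effects of the 8 genes are also given without both small intestine Asbt+/+ libraries. Such a fit compares the tissues in Asbt-/- hosts alone and the hosts in spleen alone. CD4 T cell markers summed to 5097 to 9963 CPM in small intestine and 5787 to 6982 CPM in spleen, with none of 10 markers at 0 in all 4 libraries of a tissue. B cell markers summed to 4.79 to 31.5 CPM in small intestine and 6.66 to 13.3 CPM in spleen, with Pax5 at 0 counts in all 8 libraries. NK and innate lymphoid markers summed to 87.3 to 400 CPM in small intestine and 184 to 389 CPM in spleen, with Ncr1 at 0 throughout. The 2 CD8 T cell markers summed to 0 to 96.3 CPM in small intestine, highest in shMdr1 Asbt+/+, and 0.616 to 12.9 CPM in spleen. Of 8 endothelial markers, which label another cell type rich in Klf2 and S1pr1, 7 were at 0 in all 4 spleen libraries, and their sum was 6.31 to 64.8 CPM in small intestine and 8.32 to 38.8 CPM in spleen. Neutrophil markers summed to 10.7 to 193 CPM in small intestine and 837 to 7447 CPM in spleen, and erythroid markers to 38.3 to 106 CPM in small intestine and 1103 to 41581 CPM in spleen. The part of these other cells in the tissue results was not tested. In bulk RNA, fewer cells of a type and less RNA per cell cannot be told apart.

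**Figure D1:**
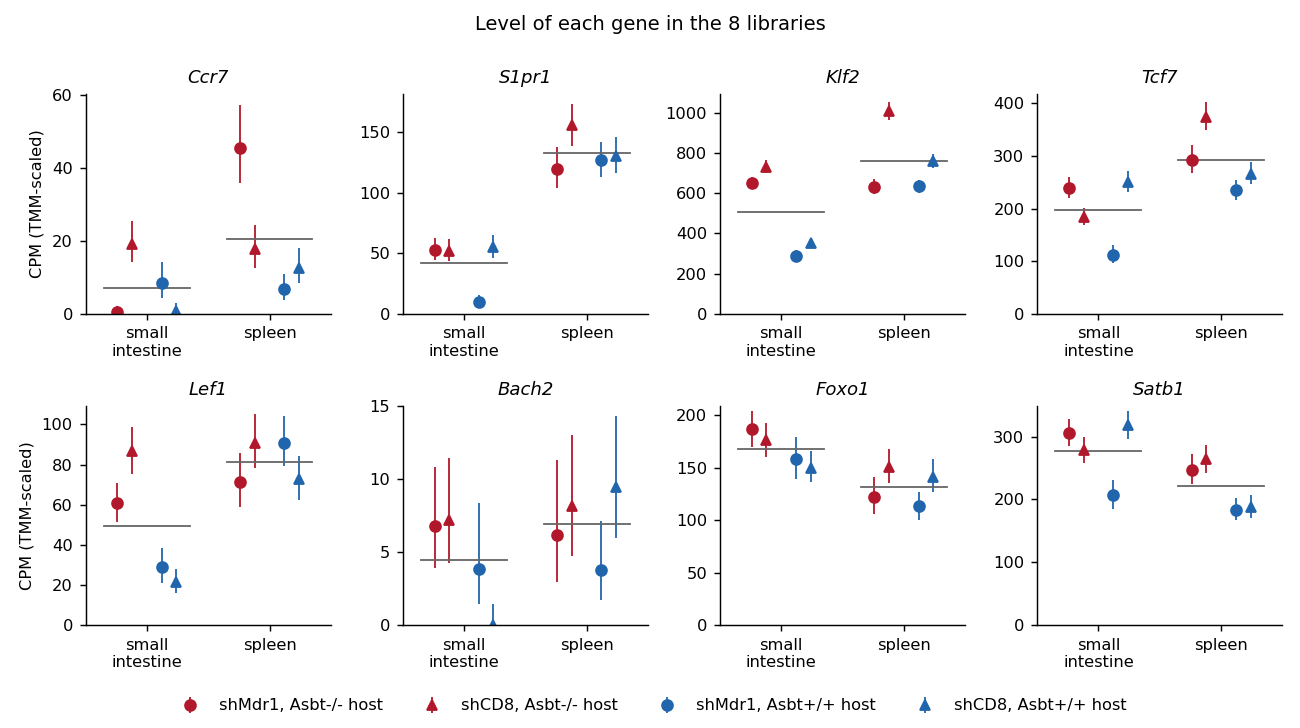
CPM of each of the 8 genes in each of the 8 libraries, 1 panel per gene, with the tissue on the horizontal axis, circles for shMdr1 and triangles for shCD8, red for Asbt-/- and blue for Asbt+/+ hosts, bars for exact 95% Poisson intervals (counting error only) and a line at the mean of each tissue. S1pr1 is the gene whose small intestine libraries (9.63 to 55.2 CPM) all lie below its spleen libraries (120 to 156 CPM).

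S1pr1 stood lower in small intestine than in spleen in every library, but not by enough to pass the test over all genes. S1PR1 is the receptor that lets T cells follow sphingosine 1-phosphate out of tissues into lymph and blood. In small intestine it had 52.7 CPM (shMdr1) and 51.9 CPM (shCD8) in Asbt-/- hosts, and 9.63 CPM (shMdr1) and 55.2 CPM (shCD8) in Asbt+/+ hosts. In spleen it had 120 CPM (shMdr1) and 156 CPM (shCD8) in Asbt-/- hosts, and 127 CPM (shMdr1) and 130 CPM (shCD8) in Asbt+/+ hosts. The tissues did not overlap, and 3 of the 4 small intestine libraries lay at 51.9 to 55.2 CPM while shMdr1 Asbt+/+, at 15 counts, stood far below them. The means were 42.4 ± 21.9 CPM in small intestine and 133 ± 15.6 CPM in spleen (SD, n = 4 each). The log2 fold change was -1.75 ± 0.42 (SE), that is 3.36-fold lower in small intestine, with an unadjusted p of 0.00168 and an adjusted p of 0.135 (edgeR quasi-likelihood test, Benjamini-Hochberg over 10000 genes). Without both small intestine Asbt+/+ libraries the log2 fold change was -1.39 ± 0.33 (edgeR adjusted p = 0.121). S1pr1 did pass with no filter on low counts (adjusted p = 0.00185, edgeR), in DESeq2 (0.00977) and without the shCD8 small intestine Asbt+/+ library (0.0388, edgeR). Over all the alternative fits its adjusted p ran from 0.00185 to 0.49, and it passed in these 3. Among all tested genes, 4.68% had all 4 small intestine libraries below all 4 spleen libraries, and S1pr1 was the member of the 8 that did.

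Ccr7, the receptor for the lymph node chemokines CCL19 and CCL21, was low and scattered. In small intestine it had 0.396 CPM (shMdr1, 1 count) and 19.2 CPM (shCD8, 48 counts) in Asbt-/- hosts, and 8.34 CPM (shMdr1, 13 counts) and 0.789 CPM (shCD8, 2 counts) in Asbt+/+ hosts. In spleen it had 45.5 CPM (shMdr1) and 17.7 CPM (shCD8) in Asbt-/- hosts, and 6.66 CPM (shMdr1) and 12.5 CPM (shCD8) in Asbt+/+ hosts. The 2 lowest values were both in small intestine and the highest was in spleen, but the tissues overlapped and 2 of the 4 matched pairs went each way. The 95% Poisson interval on the single count of the lowest library reached 2.21 CPM. The shCD8 library from the same tissue and host genotype had an interval of 14.1 to 25.4 CPM, so these 2 intervals did not overlap. They cover counting error only, and not the amplification of cDNA. The log2 fold change between tissues was -1.39 ± 1.10 (edgeR adjusted p = 0.8). It ran from -3.09 without shMdr1 small intestine Asbt+/+ to -0.74 without shMdr1 spleen Asbt-/- among the fits that left out 1 library, and was -2.30 ± 1.23 without both small intestine Asbt+/+ libraries (edgeR adjusted p = 0.454).

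Klf2 encodes the zinc finger factor that switches on S1pr1 and keeps T cells quiescent. In small intestine it had 650 CPM (shMdr1) and 731 CPM (shCD8) in Asbt-/- hosts, but 287 CPM (shMdr1) and 352 CPM (shCD8) in Asbt+/+ hosts. In spleen it had 632 CPM (shMdr1) and 1007 CPM (shCD8) in Asbt-/- hosts, and 633 CPM (shMdr1) and 758 CPM (shCD8) in Asbt+/+ hosts. The low values were those of the 2 small intestine Asbt+/+ libraries, and the small intestine Asbt-/- libraries lay inside the range of the spleen. Between tissues the means were 505 ± 219 CPM in small intestine and 757 ± 176 CPM in spleen (SD, n = 4 each), a log2 fold change of -0.67 ± 0.27 (unadjusted p = 0.0298, adjusted p = 0.517, edgeR). Without both small intestine Asbt+/+ libraries the log2 fold change was -0.21 ± 0.32 (edgeR adjusted p = 0.821, and 0.18 to 0.999 over all the alternative fits).

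Tcf7 and Lef1 encode the HMG-box factors TCF1 and LEF1, which act on WNT target genes and hold T cells in a stem-like memory state. Tcf7 had 240 CPM (shMdr1) and 184 CPM (shCD8) in small intestine of Asbt-/- hosts, and 112 CPM (shMdr1) and 251 CPM (shCD8) in small intestine of Asbt+/+ hosts. In spleen it had 293 CPM (shMdr1) and 374 CPM (shCD8) in Asbt-/- hosts, and 235 CPM (shMdr1) and 266 CPM (shCD8) in Asbt+/+ hosts. The small intestine member was the lower in 4 of 4 matched pairs, although the tissues overlapped, and the log2 fold change was -0.56 ± 0.27 (unadjusted p = 0.0615, adjusted p = 0.618, edgeR). Lef1 had 60.6 CPM (shMdr1) and 86.6 CPM (shCD8) in small intestine of Asbt-/- hosts, and 28.9 CPM (shMdr1) and 21.3 CPM (shCD8) in small intestine of Asbt+/+ hosts. In spleen it lay between 71.4 and 91.0 CPM in all 4 libraries. Lef1 too was lower in 4 of 4 pairs, with a log2 fold change of -0.91 ± 0.41 (unadjusted p = 0.0465, adjusted p = 0.581, edgeR). Of all tested genes, 11.8% were lower in small intestine in 4 of 4 pairs. Without both small intestine Asbt+/+ libraries the value for Tcf7 was -0.65 ± 0.34 and that for Lef1 only -0.15 ± 0.35 (edgeR adjusted p = 0.444 for Tcf7 and 0.906 for Lef1). Over all the alternative fits adjusted p ran from 0.248 to 0.999 for Tcf7 and from 0.322 to 0.999 for Lef1.

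The promoters of Klf2 and Lef1 are shown, since KLF factors bind CACCC boxes. Both genes were lower in both small intestine Asbt+/+ libraries than in both small intestine Asbt-/- libraries. The same held for Bach2 and Foxo1, whose windows had 0 matches to the CACCC box. The sequences are the 250 bases before the RefSeq start site on build GRCm38.p6, chr8:72318812-72319061 (plus strand) for Klf2 and chr3:131110047-131110296 (plus strand, the first of 4 starts) for Lef1. Capitals mark the CACCC box CCCACCC or its reverse complement; every motif here was searched on both strands.
Klf2: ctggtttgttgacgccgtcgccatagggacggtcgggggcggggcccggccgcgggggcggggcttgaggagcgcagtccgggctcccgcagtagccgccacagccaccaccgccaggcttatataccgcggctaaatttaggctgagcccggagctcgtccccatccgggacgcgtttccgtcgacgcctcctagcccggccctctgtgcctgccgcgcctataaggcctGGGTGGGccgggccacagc
Lef1: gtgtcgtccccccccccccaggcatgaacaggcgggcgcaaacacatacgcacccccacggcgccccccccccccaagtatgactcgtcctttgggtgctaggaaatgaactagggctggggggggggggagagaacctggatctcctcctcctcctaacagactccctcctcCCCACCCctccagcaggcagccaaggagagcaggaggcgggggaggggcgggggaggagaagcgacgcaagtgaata
The CACCC box begins 19 bases before the start in Klf2 and 77 bases before it in Lef1, and 15.8% of all 32851 windows hold it. In all, 6 of the 8 genes had 14 windows in the table, 7 of which, of Klf2, Lef1, Tcf7 and Satb1, held the CACCC box. The first 2 Lef1 windows overlap and hold the same box, so the 7 windows are not 7 separate sites. The TCF and LEF letters CTTTGA were in 2 of the 14 windows, of Bach2 and of a later start of Lef1, against 13.8% of all windows, and the FOXO letters GTAAACA in 0 of 14, against 3.17%. The Klf2 window is 71.2% and the Lef1 window 66.4% G and C, against a median of 52.4% over all windows. These are matches of letters, and no binding was measured.

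Bach2, a repressor of effector genes, was near the detection limit throughout. In small intestine it had 17 counts (6.74 CPM, shMdr1) and 18 counts (7.18 CPM, shCD8) in Asbt-/- hosts, and 6 counts (3.85 CPM, shMdr1) and 0 counts (shCD8) in Asbt+/+ hosts. In spleen it had 10 counts (6.16 CPM, shMdr1) and 17 counts (8.14 CPM, shCD8) in Asbt-/- hosts, and 9 counts (3.75 CPM, shMdr1) and 22 counts (9.46 CPM, shCD8) in Asbt+/+ hosts. The count of 0 allows up to 1.45 CPM by its exact Poisson 95% interval, for counting error only. The log2 fold change between tissues was -0.87 ± 1.37 (edgeR adjusted p = 0.906), and -0.01 ± 1.02 without both small intestine Asbt+/+ libraries (edgeR adjusted p = 0.999), so at this depth a difference between tissues was not detectable.

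Foxo1 and Satb1 went the other way from the 6 genes above. Foxo1, the factor upstream of Klf2, had 187 CPM (shMdr1) and 176 CPM (shCD8) in small intestine of Asbt-/- hosts, and 158 CPM (shMdr1) and 150 CPM (shCD8) in small intestine of Asbt+/+ hosts. In spleen it had 122 CPM (shMdr1) and 151 CPM (shCD8) in Asbt-/- hosts, and 113 CPM (shMdr1) and 141 CPM (shCD8) in Asbt+/+ hosts. The tissues met only at 150 CPM in small intestine and 151 CPM in spleen. Foxo1 averaged 168 ± 16.5 CPM in small intestine and 132 ± 17.3 CPM in spleen, and its log2 fold change was 0.35 ± 0.23 (edgeR adjusted p = 0.764). Satb1, a chromatin organiser, averaged 278 ± 49.6 CPM in small intestine and 221 ± 40.6 CPM in spleen (SD, n = 4 each). In small intestine it ran from 207 CPM (shMdr1 Asbt+/+) to 318 CPM (shCD8 Asbt+/+), and in spleen from 184 CPM (shMdr1 Asbt+/+) to 264 CPM (shCD8 Asbt-/-). Its log2 fold change was 0.34 ± 0.23 (edgeR adjusted p = 0.768). Without both small intestine Asbt+/+ libraries the value was 0.42 ± 0.32 for Foxo1 and 0.19 ± 0.31 for Satb1 (edgeR adjusted p = 0.613 for Foxo1 and 0.839 for Satb1). Both genes were higher in small intestine in 4 of 4 pairs, as were 8.11% of all tested genes.

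Over the 8 genes, 0 passed the edgeR test between tissues in either direction, against 0.62% of all tested genes, 0.51% as higher and 0.11% as lower in small intestine. At an unadjusted p under 0.05, 3 of the 8 were lower in small intestine (S1pr1, Klf2 and Lef1), against 3.68% of all tested genes. The log2 fold change was below 0 for 6 of the 8, against 58.8% of all tested genes, and the median was -0.77, against -0.17. The 8 genes did not share one pattern over the libraries: S1pr1 was below spleen in the small intestine of both hosts, Klf2 and Lef1 were low in the small intestine of Asbt+/+ hosts, and Foxo1 and Satb1 were below spleen in 0 of 4 pairs.

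**Figure D2:**
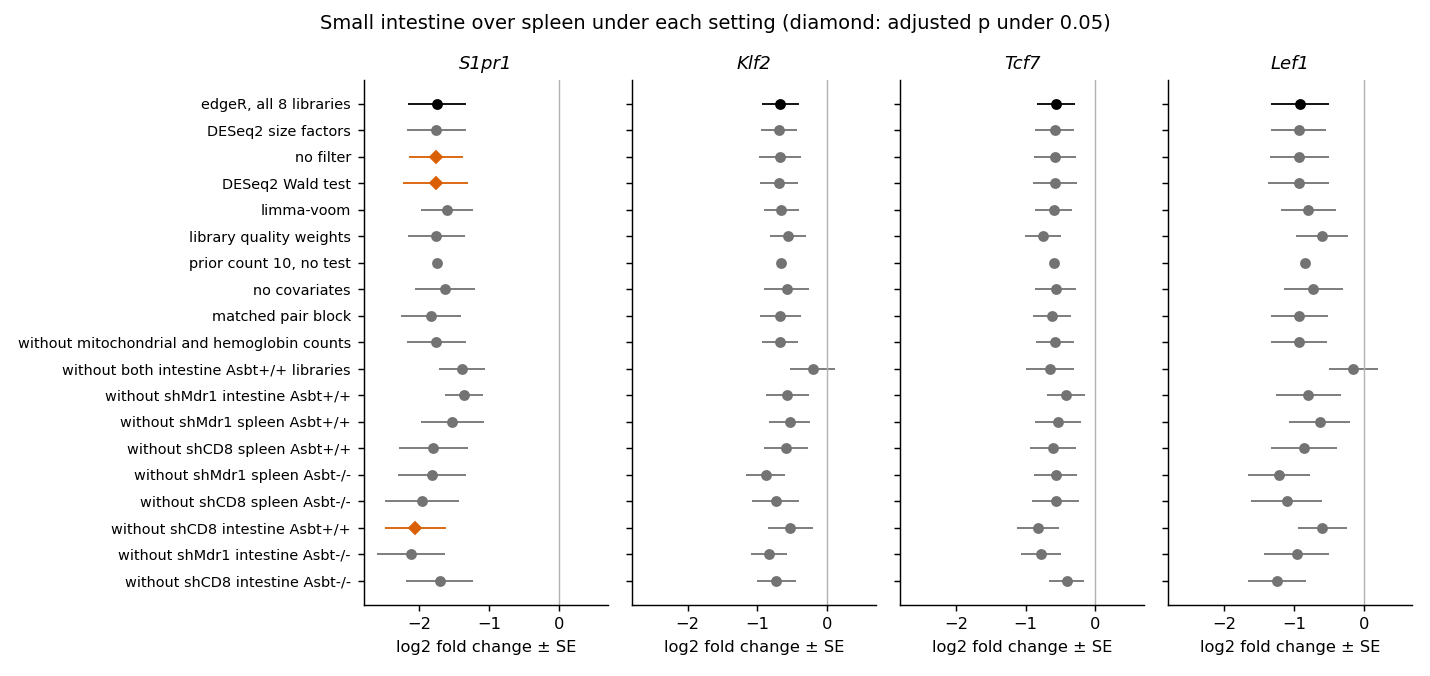
Log2 fold change of small intestine over spleen (horizontal axis) of S1pr1, Klf2, Tcf7 and Lef1 under each way of fitting the counts, with bars of 1 SE either side and orange diamonds where the gene passed the test over all genes. S1pr1 stays between -2.12 and -1.36 when 1 library is left out, and Klf2 and Lef1 lie at -0.21 and -0.15 without both small intestine Asbt+/+ libraries.

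**Figure D3:**
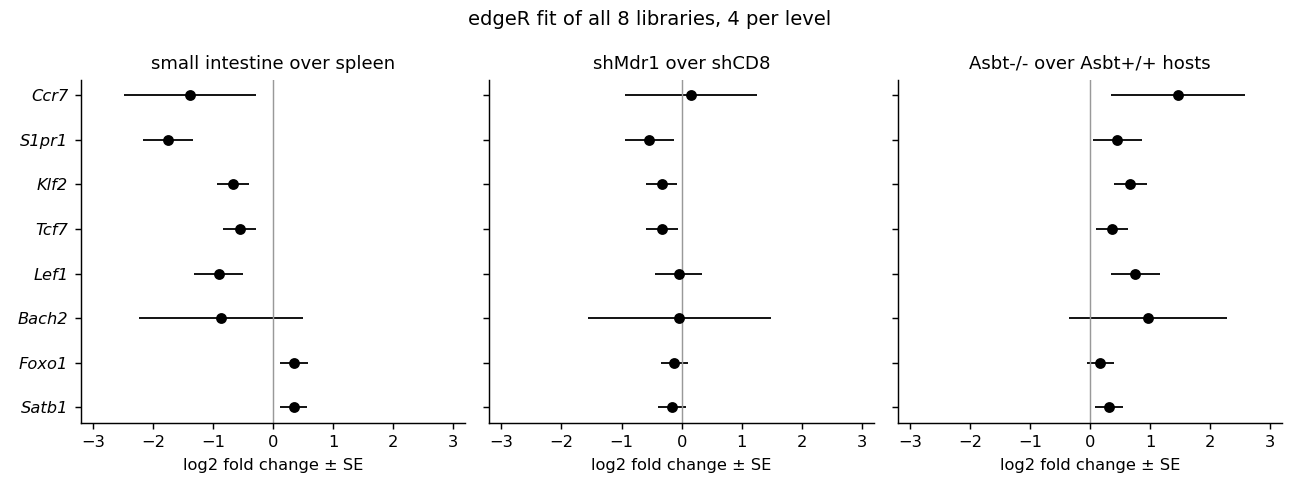
Log2 fold change (horizontal axis) of each of the 8 genes for small intestine over spleen, shMdr1 over shCD8 and Asbt-/- over Asbt+/+, with bars of 1 SE either side. S1pr1 lies at -1.75 between tissues, all 8 genes lie above 0 between hosts, and none passed the edgeR test.

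The host comparison asks whether the state of the T cells depends on the bile acid transporter of the host. All 8 genes had a log2 fold change above 0 in Asbt-/- over Asbt+/+ hosts, against 57.3% of all tested genes, with a median of 0.56 against 0.11. This direction rested in part on the small intestine Asbt+/+ libraries. A fit without them takes the host difference from the spleen libraries alone, so it is a different comparison. Without both, Lef1 stood at -0.03 ± 0.35, Klf2 at 0.21 ± 0.32, Bach2 at 0.19 ± 0.98, S1pr1 at 0.09 ± 0.32 and Foxo1 at 0.10 ± 0.32, while Ccr7 stood at 2.04 ± 1.11, Satb1 at 0.46 ± 0.31 and Tcf7 at 0.41 ± 0.33 (edgeR adjusted p = 0.999 for each). Of the 8, 0 passed the edgeR test (adjusted p = 0.996 for each), against 0% of all tested genes. At an unadjusted p under 0.05 there was 1 of the 8, Klf2, against 2.71% of all tested genes (271 of 10000). Klf2 averaged 755 ± 173 CPM in Asbt-/- and 507 ± 225 CPM in Asbt+/+ hosts, log2 0.67 ± 0.27. Lef1 averaged 77.4 ± 14 CPM in Asbt-/- and 53.4 ± 33.7 CPM in Asbt+/+ hosts, log2 0.75 ± 0.41. Ccr7, at 20.7 ± 18.6 CPM in Asbt-/- and 7.07 ± 4.84 CPM in Asbt+/+ hosts (SD, n = 4 each), stood at log2 1.46 ± 1.12, and at 0.06 without shCD8 small intestine Asbt-/- and 2.62 without shMdr1 small intestine Asbt+/+.

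Within the small intestine, Klf2 averaged 691 CPM in Asbt-/- and 319 CPM in Asbt+/+ hosts, a ratio of 2.16, and Lef1 73.6 CPM in Asbt-/- and 25.1 CPM in Asbt+/+ hosts, a ratio of 2.93. In both genes, both Asbt-/- libraries exceeded both Asbt+/+ libraries. The same held for Bach2, at a ratio of 3.61, and Foxo1, at 1.18, which makes 4 of 8 genes, against 23.7% of all tested genes. Within the spleen, Klf2 stood at a ratio of 1.18 and Lef1 at 0.994 (81.2 CPM in Asbt-/- and 81.7 CPM in Asbt+/+ hosts), with the hosts overlapping. There both Asbt-/- libraries exceeded both Asbt+/+ libraries for Ccr7 (31.6 CPM in Asbt-/- and 9.56 CPM in Asbt+/+ hosts), Tcf7 (ratio 1.33) and Satb1 (1.37), 3 of 8, against 18.7% of all tested genes. Mitochondrial counts split the spleen libraries in the same way, at 26.8% (shMdr1) and 17.6% (shCD8) in Asbt-/- and 6.63% (shMdr1) and 7.33% (shCD8) in Asbt+/+ hosts. Neutrophil markers split them too, at 3001 CPM (shMdr1) and 837 CPM (shCD8) in Asbt-/- and 7447 CPM (shMdr1) and 6728 CPM (shCD8) in Asbt+/+ hosts, and the part of either was not tested. The difference between tissues in the host effect was above 0 for 5 of the 8 genes. Its median was 0.47 over the 8, against 0.29 over all tested genes, which thus also lay mostly above 0. It was below 0 for 3, at -0.64 ± 2.93 on the log2 scale for Ccr7, -0.28 ± 0.43 for Satb1 and -0.1 ± 0.55 for Tcf7. The values were 1.56 ± 0.62 for Lef1, 0.91 ± 0.39 for Klf2 and 0.82 ± 0.86 for S1pr1. The last 3 genes had unadjusted p of 0.037 for Lef1, 0.0488 for Klf2 and 0.37 for S1pr1, and did not pass after adjustment (edgeR adjusted p = 0.837 for Lef1 and Klf2, and 0.947 for S1pr1). For this interaction 0% of all tested genes were called by edgeR, and 5.94% (594 of 10000) had an unadjusted p under 0.05. The small intestine host values rest on the same 2 Asbt+/+ libraries that were left out in the fits above. Epithelial markers moved with them, at 31.3 CPM (shMdr1) and 18.4 CPM (shCD8) in small intestine of Asbt-/- hosts. In small intestine of Asbt+/+ hosts they summed to 128 CPM (shMdr1) and 92.7 CPM (shCD8). These markers split by host in spleen too, at 0 CPM (shMdr1) and 9.1 CPM (shCD8) in Asbt-/- hosts. In spleen of Asbt+/+ hosts they summed to 84.1 CPM (shMdr1) and 15.5 CPM (shCD8). The part of epithelial cells and of library quality was not tested. CD4 T cell markers summed to 9045 CPM (shMdr1) and 5097 CPM (shCD8) in small intestine of Asbt-/- hosts, and to 9963 CPM (shMdr1) and 8863 CPM (shCD8) in that of Asbt+/+ hosts. The part of the share of T cells in the Klf2 and Lef1 values was not tested.

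**Figure D4:**
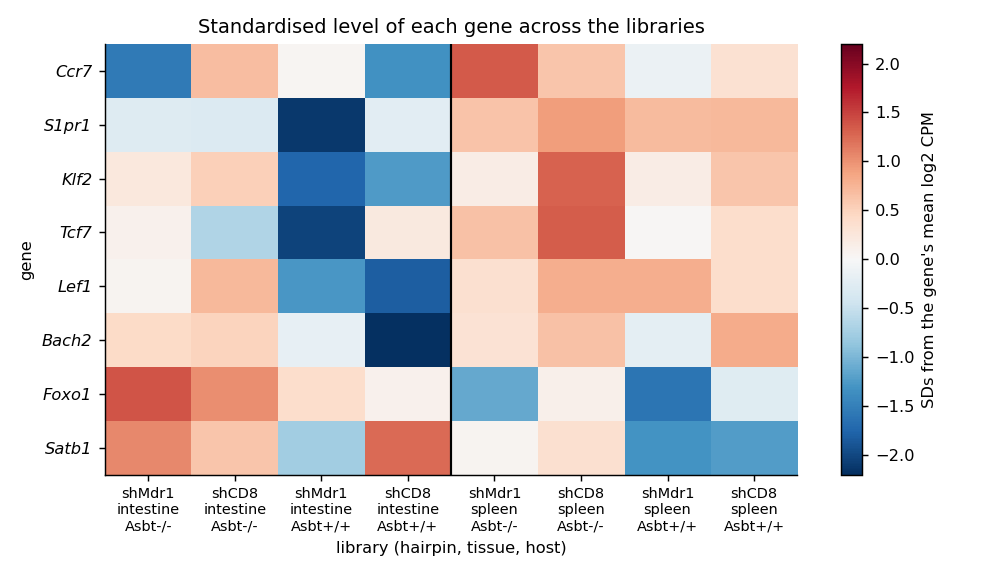
Standardised log2 CPM (each gene centred on its mean over the 8 libraries and divided by its SD, in colour) of the 8 genes, with genes in rows and libraries in columns. The lowest mean scores over the 8 genes are those of small intestine Asbt+/+, -0.96 (shMdr1) and -0.68 (shCD8), and the highest is that of shCD8 spleen Asbt-/-, 0.76.

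Setting shMdr1 against shCD8 asks what less of the transporter does to the T cells. Klf2 was the gene of the 8 whose shMdr1 member was the lower in 4 of 4 pairs, as for 7.36% of all tested genes. Its means were 551 ± 176 CPM with shMdr1 and 712 ± 270 CPM with shCD8, log2 -0.33 ± 0.26. S1pr1 averaged 77.2 ± 56.1 CPM with shMdr1 and 98.2 ± 52.7 CPM with shCD8 (SD, n = 4 each), log2 -0.54 ± 0.41, and was lower in 3 of 4 pairs. Tcf7 averaged 220 ± 76.8 CPM with shMdr1 and 269 ± 78.9 CPM with shCD8, log2 -0.33 ± 0.27, lower in 3 of 4 pairs. The other 5 genes lay between -0.16 and 0.15. Of the 8, 7 were below 0, against 44.9% of all tested genes, and the median was -0.14, against 0.09. Of the 8, 0 passed the edgeR test (adjusted p = 0.999 to 1), against 0% of all tested genes, and 0 had an unadjusted p under 0.05, against 2.99% (299 of 10000). Without both small intestine Asbt+/+ libraries, where Abcb1a was not lower in the library labelled shMdr1, the log2 value was -0.37 ± 0.26 for Klf2, -0.13 ± 0.26 for S1pr1 and -0.05 ± 0.27 for Tcf7 (edgeR adjusted p = 0.86 to 0.982). The change of the hairpin effect with tissue was called by edgeR for 0 of the 8, against 0% of all tested genes (1.69% at an unadjusted p under 0.05), and its change with host likewise for 0 of the 8, against 0% (1.19% at an unadjusted p under 0.05).

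Of 11 further receptors for homing to and leaving lymphoid organs, none passed the edgeR test between tissues in the fit of all 8 libraries, 6 had a log2 fold change below 0 and the median was -0.26. For this list and those that follow, the same over all tested genes was 0.62% called, 58.8% below 0 and a median of -0.17. Itga4, the α4 integrin chain used for entry into gut and bone marrow, averaged 131 ± 43.8 CPM in small intestine and 236 ± 56.1 CPM in spleen, log2 -0.87 ± 0.29. S1pr4, a second sphingosine 1-phosphate receptor, averaged 35.1 ± 13.2 CPM in small intestine and 59.8 ± 5.4 CPM in spleen, log2 -0.81 ± 0.39. Cxcr4, the receptor for CXCL12, stood the other way, at 61.4 ± 12.3 CPM in small intestine and 18.5 ± 6.8 CPM in spleen, log2 1.80 ± 0.42. Adjusted p was 0.378 for Itga4, 0.618 for S1pr4 and 0.115 for Cxcr4 (edgeR). Cxcr4 passed in 2 alternative fits, DESeq2 (adjusted p = 0.00661) and edgeR without shCD8 small intestine Asbt+/+ (0.0497), over a range up to 0.533.

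Of 13 partners and targets of FOXO1 and KLF2, none passed the edgeR test in the fit of all 8 libraries, 8 were below 0 and the median was -0.13. Il6ra, the interleukin 6 receptor chain, was counted 9 times in small intestine libraries and 227 times in those of spleen, that is 1.08 ± 1.26 CPM in small intestine and 27.6 ± 6.75 CPM in spleen (log2 -4.68 ± 1.18, edgeR adjusted p = 0.148). It passed in 4 alternative fits: with no filter, in DESeq2, in limma-voom and without shCD8 small intestine Asbt+/+, and its adjusted p ran from 0.000263 (DESeq2) to 0.587 over the alternatives. Neutrophils also carry this receptor, and their markers, 10.7 to 193 CPM in small intestine and 837 to 7447 CPM in spleen, moved with it; their part was not tested. Sesn3, a FOXO target that restrains mTORC1, averaged 54.6 ± 24.8 CPM in small intestine and 20.7 ± 6.09 CPM in spleen (log2 1.33 ± 0.41, edgeR adjusted p = 0.306). Klf6 averaged 949 ± 78 CPM in small intestine and 661 ± 139 CPM in spleen, and Bcl6, the follicular helper factor, 22.6 ± 13.4 CPM in small intestine and 5.21 ± 4.1 CPM in spleen. Their log2 fold changes were 0.54 ± 0.24 for Klf6 and 2.21 ± 1.12 for Bcl6 (edgeR adjusted p = 0.579 for Klf6 and 0.65 for Bcl6).

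Of 16 tested genes of the PI3K and AKT pathway, which acts on FOXO1, none passed the edgeR test in the fit of all 8 libraries, 11 were below 0 and the median was -0.23. Pik3ip1, an inhibitor of PI3K, averaged 1.75 ± 2.58 CPM in small intestine and 16.2 ± 6.29 CPM in spleen (log2 -3.70 ± 1.23). Sgk1, a kinase that phosphorylates FOXO factors, averaged 65.1 ± 52.9 CPM in small intestine and 104 ± 44.4 CPM in spleen (log2 -0.97 ± 0.35). Pik3r5, a regulatory subunit of PI3K gamma, averaged 12.4 ± 8.35 CPM in small intestine and 42 ± 20.1 CPM in spleen (log2 -1.99 ± 0.88). For Mtor the log2 fold change was -1.53 ± 1.12. Adjusted p was 0.377 for Pik3ip1, 0.42 for Sgk1, 0.578 for Pik3r5 and 0.784 for Mtor (edgeR). Pik3ip1 passed in DESeq2 (adjusted p = 0.0262), over a range up to 0.892 in the alternative fits.

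Of 17 other naive and memory T cell factors, none passed the edgeR test in the fit of all 8 libraries, 12 were below 0 and the median was -0.45. Dapl1, a gene of naive T cells, was listed with 0 counts over the small intestine libraries and 153 over the spleen libraries. With a floor of 3 counts over the 4 small intestine libraries it was at least 55.1-fold higher in spleen, and it did not pass in that fit (edgeR adjusted p = 0.0884). It passed in 5 alternative fits: with no filter, in DESeq2, in limma-voom, with no covariates and without shCD8 small intestine Asbt+/+, and its adjusted p ran from 1.1e-05 (DESeq2) to 0.508 over the alternatives. Slamf6, a surface receptor of stem-like T cells, averaged 79.5 ± 55.2 CPM in small intestine and 158 ± 38.6 CPM in spleen (log2 -1.15 ± 0.41). Eomes, a T-box factor, averaged 52 ± 25.4 CPM in small intestine and 21.8 ± 13.7 CPM in spleen (log2 1.36 ± 0.47), and Ets1 678 ± 89.5 CPM in small intestine and 508 ± 43.8 CPM in spleen (log2 0.41 ± 0.22). Adjusted p was 0.429 for Slamf6, 0.407 for Eomes and 0.674 for Ets1 (edgeR), and Slamf6 passed without shCD8 small intestine Asbt+/+ (0.0247, edgeR), over a range up to 0.91 in the alternative fits. Of 10 tested co-factors and WNT targets of TCF1 and LEF1, none passed the edgeR test in the fit of all 8 libraries, 5 were below 0 and the median was -0.08. Axin2, a widely used WNT target, averaged 11.8 ± 9.39 CPM in small intestine and 38.8 ± 14.6 CPM in spleen (log2 -2.12 ± 0.92, edgeR adjusted p = 0.569). The log2 fold changes of the 3 others of smallest p were 0.53 for Ctnnb1, which encodes β-catenin, 0.42 for the kinase gene Gsk3b and -2.22 for Bcl9l.

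Of the 14 effector and residency factors, 1 was called by edgeR, higher in small intestine, against 0.51% of all tested genes. Of the 14, 1 had a log2 fold change below 0 and the median was 0.83. The gene that passed was Rbpj, the nuclear partner of NOTCH. It averaged 145 ± 60.8 CPM in small intestine and 35.8 ± 19.4 CPM in spleen, 4.24-fold higher (log2 2.09 ± 0.29, adjusted p = 0.00979). The call was lost with no covariates (adjusted p = 0.0743) and without any 1 of shMdr1 small intestine Asbt+/+ (0.0803), shCD8 spleen Asbt+/+ (0.0516), shMdr1 spleen Asbt-/- (0.0515) or shCD8 spleen Asbt-/- (0.0657), all in edgeR. Over all the alternative fits its adjusted p ran from 6.09e-07 to 0.0803. Itgae, which encodes the CD103 chain that binds E-cadherin on epithelium, averaged 148 ± 59.1 CPM in small intestine and 58.2 ± 34.5 CPM in spleen (log2 1.43 ± 0.40, edgeR adjusted p = 0.226). Irf4 averaged 147 ± 99.2 CPM in small intestine and 44 ± 2.31 CPM in spleen, and Bhlhe40 averaged 1351 ± 154 CPM in small intestine and 736 ± 187 CPM in spleen. Both are factors induced by T cell activation, with log2 fold changes of 1.49 ± 0.44 for Irf4 and 0.88 ± 0.26 for Bhlhe40 (edgeR adjusted p = 0.281 for Irf4 and 0.283 for Bhlhe40). Of these 3 genes, Irf4 passed in 4, Itgae in 2 and Bhlhe40 in 1 of the alternative fits, with adjusted p from 0.00744 to 0.831 for Irf4, from 0.0255 to 0.867 for Itgae and from 0.0307 to 0.975 for Bhlhe40. Between hairpins and between hosts, 0 genes of the 6 lists passed the edgeR test in the fit of all 8 libraries. Of all tested genes, 0% passed in either comparison.

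**Figure D5:**
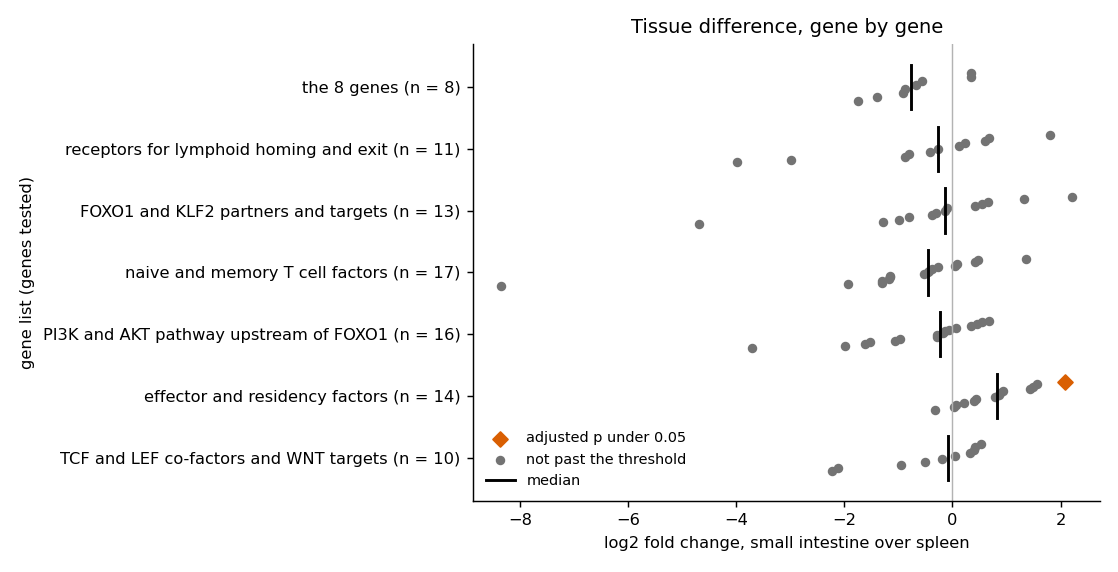
Log2 fold change of small intestine over spleen (horizontal axis) for every tested gene of the 8 genes and of the 6 lists, 1 point per gene and 1 row per list, with a black line at the median of each row and an orange diamond for the gene past the threshold, Rbpj. The leftmost point is Dapl1, whose fitted value depends on the prior count because its small intestine libraries had 0 counts. The 8 genes have a median of -0.77 and the effector and residency factors one of 0.83.

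Over the 8 libraries, the genes whose log2 CPM followed the mean standardised level of the 8 most closely were Iqgap1 (Pearson r = 0.965), Mbd1 (0.957), Hbp1 (0.955), Sptlc2 (0.943) and Zfp263 (0.937), out of 5069 candidates. Without both small intestine Asbt+/+ libraries, that is over 6 libraries, r was 0.914 for Iqgap1, 0.831 for Mbd1, 0.838 for Hbp1, 0.751 for Sptlc2 and 0.718 for Zfp263. For S1pr1 the closest were Arl4c (0.972), the β1 integrin gene Itgb1 (0.964) and Nsg2 (0.950). Over the 6 libraries, Arl4c stood at 0.904, Itgb1 at 0.960 and Nsg2 at 0.962. For Klf2 the closest were Sptlc2 (0.974), Txnip (0.960) and Iqgap1 (0.951), and for Satb1 the closest was Myc (0.941). Over the 6 libraries, the Klf2 values fell to 0.897 for Sptlc2, 0.738 for Txnip and 0.695 for Iqgap1, and Myc stood at 0.979. All of these libraries share tissue, host and depth differences, so the values describe likeness over these libraries and carry no test.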

How the data were processed

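The authors deposited raw read counts per gene in whole numbers, 1 column per library. The submitters' processing notes name TopHat, HTSeq, DESeq2 and build mm9. Tool versions and roles, the annotation and strandedness were not given, so overlapping, antisense and paralogous genes are uncertain. Per the labels' protocols, cDNA was amplified with a SMART-Seq v4 ultra-low-input kit, without molecular identifiers, and made into libraries with a NEBNext Ultra II kit, so Poisson intervals cover counting error only. Groups come from the labels.

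From the 37411 genes, 17570 with at least 1 count, filterByExpr kept 10000 genes that held 99.52% of counts. CPM were computed on TMM-scaled totals of these genes. An additive fit of tissue, hairpin and host over all 8 libraries (edgeR 4.0.16 quasi-likelihood, R 4.3.3, 4 residual degrees of freedom) gave the main effects. Each interaction was added alone (3 residual degrees of freedom). Libraries of a level stand as replicates, so the residual spread includes interactions. P-values were adjusted by Benjamini-Hochberg over the 10000 genes (threshold 0.05). The SE after a log2 fold change is its size divided by the square root of F. Matched pairs are libraries alike in the other 2 factors. The fits were tested on simulated data, with changes put only into genes of higher mean CPM. The rates that follow do not cover genes as low as Ccr7 and Bach2. A true log2 change of 1 was recovered for 12% (tissue), 18% (hairpin) and 17% (host) of changed genes. A log2 change of 2 was recovered for 89% (tissue), 86% (hairpin) and 89% (host). For tissue by hairpin, recovery was 1% at a log2 change of 1 and 3% at 2. Genes that did not pass may therefore still differ.

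All 8 genes are named. Of each list, those past the test and up to 4 by smallest p between tissues are named. One gene that this rule names is not reported here. Likeness is Pearson's r of log2 CPM (prior count 2) among genes of at least 20 CPM on average. The members and lists were chosen with earlier results of these data known. The alternatives tried were the Wald test of DESeq2 1.42.0, size factors in place of TMM, no filter, library quality weights, limma-voom (limma 3.58.1), no covariates, a block for each matched pair, a prior count of 10 (no test), leaving out each library or both small intestine Asbt+/+ libraries, and, added after seeing the data, leaving out mitochondrial and hemoglobin counts. Promoter sequences are from RefSeq; the annotation of mm9 was not used here.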

Additional observations from a re-analysis of the deposited data

Results flagged for a closer look

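In 6 of 48 groups of 4 libraries of a level, which overlap one another, 1 library stood far from the other 3 by Dixon's test. Chance flags about 1 group in 20 where the 4 libraries are alike. Each group here mixed the levels of the other 2 factors, so that rate need not hold. All 6 were one of the 2 small intestine Asbt+/+ libraries. In the shMdr1 library of that kind, S1pr1 was at 9.63 CPM, while the other small intestine libraries lay at 51.9 to 55.2 CPM. In the same library Klf2 was at 287 CPM, while the other shMdr1 libraries lay at 632 to 650 CPM, and Tcf7 was at 112 CPM, while the other Asbt+/+ libraries lay at 235 to 266 CPM. In the shCD8 small intestine Asbt+/+ library, Ccr7 was at 0.789 CPM (others of shCD8 12.5 to 19.2 CPM), Lef1 at 21.3 CPM (others 72.7 to 91.0 CPM) and Bach2 at 0 CPM (others 7.18 to 9.46 CPM). These are the library with 18.3% mitochondrial counts and the library with counts for 8456 genes, and the part of library quality in these values was not tested.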

How the results depend on the processing

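The count of genes called between tissues was 62 and became 165 with no filter, 257 in DESeq2, 116 with library quality weights, 39 without both small intestine Asbt+/+ libraries and 11 to 137 when 1 library was left out (11 without shMdr1 and 137 without shCD8 small intestine Asbt+/+). Between hairpins, where the count was 0, no filter gave 9, DESeq2 3, quality weights 2 and leaving out 1 library 0. Between hosts, also 0, they gave 14, 6 and 6, and leaving out 1 library gave 0 to 4. For tissue by hairpin (0), no filter gave 4, quality weights 1 and leaving out 1 library 0 to 678 (678 without shCD8 small intestine Asbt-/-). For tissue by host (0), no filter gave 25, DESeq2 33, quality weights 5 and leaving out 1 library 0 to 1294 (1294 without shMdr1 small intestine Asbt+/+). For hairpin by host (0), no filter gave 3, limma-voom 3, quality weights 4 and leaving out 1 library 0 to 770 (770 without shCD8 spleen Asbt+/+). Directions of small values turned. Bach2 between hairpins was -0.04 (log2) and became 0.32 with limma-voom, 0.24 with the matched pair block and -0.65 to 0.99 leaving out 1 library. Ccr7 between hairpins was 0.15 and became -0.02 with limma-voom, -0.06 with quality weights, -0.05 with the matched pair block, -0.99 without both small intestine Asbt+/+ libraries and -1.3 to 1.25 leaving out 1 library. Lef1 between hairpins was -0.05 and ran from -0.36 to 0.32 leaving out 1 library, and Lef1 between hosts was 0.75 and became -0.03 without both small intestine Asbt+/+ libraries. S1pr1 for tissue by host was 0.82 and ran from -0.11 to 2.27 leaving out 1 library. The cause of these changes was not tested. S1pr1 between tissues ran from -2.12 to -1.36 leaving out 1 library. No paired analysis by replicate number was possible because the labels give no replicate numbers. Bach2 had 0 to 22 counts per library, which limits what can be seen of it at this depth.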
